A study of Mus musculus with 59 samples.

Results

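The genes described here are A2m, Csn3, Prl2c2, Car3 and Sprr2a1, 5 of the 11807 genes measured. They were picked because their levels varied widely between mouse pluripotent stem cell clones of the same origin, so the spread and the correlations between them given below are descriptions without a test. On the array they had 8 probe sets of 22626. A2m encodes alpha-2-macroglobulin, a secreted protein that traps proteases. Csn3 encodes kappa-casein, the milk protein that keeps casein micelles in suspension. Prl2c2 encodes proliferin, a secreted hormone of the prolactin family made by trophoblast giant cells of the placenta and also by growth-stimulated mouse fibroblasts. Car3 encodes carbonic anhydrase III, an enzyme of the cytosol of muscle, fat and liver cells. Sprr2a1 encodes a small proline-rich protein that is cross-linked into the cornified envelope of epithelial cells. The products of 3 of the genes are therefore secreted, whereas those of Car3 and Sprr2a1 stay with the cell.

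RNA of 59 mouse lines was hybridised to Affymetrix arrays, 1 array per line. The lines were 6 NT-ESC lines, which are embryonic stem cells from blastocysts made by nuclear transfer (NT-4, NT-5 and NT-6 from the line Adeno-2, NT-7 from iPSC-7, NT-8 and NT-9 from iPSC-15), 48 clones of induced pluripotent stem cells (iPSC), the line Adeno-2, an Adeno-iPSC of fetal liver, and 4 clones of targeted KH2 embryonic stem cells (ESC). Per the series description, the iPSC came from chimeric mice made with ESC that carried an inducible cassette of myc, Klf4, Oct4 and Sox2. Of these clones, 31 came from blood cells (11 from HSCs, 11 from GMPs, 9 from granulocytes) and 11 from cells labelled PFs or TTFs, counted here as fibroblasts, of mouse 1, mouse 2 or chimera 2. The other 6 came from MEFs, mouse embryonic fibroblasts, of chimera 1. The labels give no age. All lines grew on irradiated MEF feeders in medium with 15% FBS and LIF, and were preplated for 45 minutes against the feeders before RNA extraction. Fewer cells that carry an RNA and less of that RNA per cell cannot be told apart in such samples, and clones of 1 animal are separate clones but not separate animals.

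None of the 5 genes belongs to the core network of pluripotency. Pluripotent cells in culture switch some tissue genes on and off from clone to clone, and clones can keep traces of the expression of their cell of origin. Cultures on feeders also hold a share of RNA from the feeder cells.

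Levels are the deposited log2 intensities, centred near 0 on each array, so a difference of 1 is a doubling of the signal. The mean levels of the main probe sets lay at the 38.5th (Sprr2a1) to the 63.1st (A2m) percentile of all probe sets. No level of 1 gene can be set against that of another gene on this scale. One clone stood apart from the rest. iPSC-32, of the PFs of mouse 2, had a Pou5f1 (Oct4) level of 0.28, against 3.78 in the next lowest line, while Sox2 was at least 3.73 and Nanog at least 4.18 in all 59 lines. The arrays of NT-7, NT-8 and NT-9 had a narrower spread of values over probe sets (SD 2.35 to 2.47) than the other 56 arrays (SD 2.54 to 2.64). The main differences and correlations are given with and without these lines.

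A second probe set for Sprr2a1, annotated to Sprr2a1 and Sprr2a3 together, followed the main one across 52 lines (r = 0.97). This second probe set cannot separate these 2 genes. The main one is annotated to Sprr2a1 alone, and whether it also matches copies of the gene was not examined. The promoter is shown because copies of the gene share it. The 300 bases around the start of Sprr2a1 in RefSeq, 250 before it and 50 from it on, lie at chr3:92215585-92215884 of GRCm38.p6 on the plus strand. They were the same as those of Sprr2a2 at 300 of 300 positions and as those of Sprr2a3 at 272 of 272 compared positions. Of the 5 genes Sprr2a1 was the only one with an entry in the promoter table.
Sprr2a1 promoter: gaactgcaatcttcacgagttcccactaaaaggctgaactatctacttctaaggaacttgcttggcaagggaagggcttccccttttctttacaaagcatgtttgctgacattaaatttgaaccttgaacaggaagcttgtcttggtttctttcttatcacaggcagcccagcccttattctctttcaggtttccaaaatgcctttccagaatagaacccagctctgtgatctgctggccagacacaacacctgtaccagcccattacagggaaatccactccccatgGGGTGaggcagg
The capitals mark the only match to any of 6 motifs searched on both strands, a CACCC box of the KLF type on the minus strand. It lies downstream of the start, at position 38 relative to it. Of the 32851 promoters of this length, 57.5% hold this motif. The AP-1 motif TGANTCA (in 7.81% of promoters), the STAT motif TTCNNNGAA (8.30%), the ETS motif GGAAGT (23.8%), the TATA box TATAAA (13.6%) and the octamer ATGCAAAT (1.74%) were not found in this window.

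The other second probe sets were dim. That of Car3 lay at the 20.8th percentile and followed the main one with r = 0.53. That of Csn3 lay at the 3.35th percentile and did not follow it (r = -0.02), so the Csn3 values below rest on 1 probe set. A2m and Prl2c2 had 1 probe set each, and that of Prl2c2 is of a type that can match close relatives.

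With all clones included, the larger part of the spread within iPSC groups sat in a few groups of fibroblast origin. The SD within the 13 iPSC origin groups, pooled over groups, was 0.96 for Sprr2a1, 0.65 for A2m, 0.64 for Car3, 0.60 for Csn3 and 0.59 for Prl2c2, against a median of 0.15 and a 99th percentile of 0.42 over all genes. By this measure Sprr2a1 ranked 2nd of 11807 genes, A2m 13th, Car3 15th, Csn3 18th and Prl2c2 19th. The groups of MEF origin, of PF origin from mouse 2 and of TTF origin held 92.8% of the within-group sum of squares of Sprr2a1, 88.1% of that of Car3, 83.4% of that of Csn3, 76.6% of that of Prl2c2 and 68.2% of that of A2m. The PF group of mouse 2, which holds iPSC-32, alone held 75.1% for Csn3, 55.7% for Car3, 55.5% for A2m, 30.25% for Sprr2a1 and 25.9% for Prl2c2. Over the 9 blood-derived groups the pooled SD was 0.28 for Car3, 0.30 for Prl2c2, 0.31 for Csn3, 0.32 for Sprr2a1 and 0.46 for A2m, beside a median of 0.13 and a 99th percentile of 0.30 over all genes. All but Car3 thus lay above the 99th percentile within blood-derived groups too, and A2m ranked 9th of all genes there. Without iPSC-32 the pooled SD of A2m over all iPSC groups was 0.44, no larger than its 0.46 over blood-derived groups. The spread of A2m thus did not sit mainly in groups of fibroblast origin once this clone was left out.

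By pooled SD, A2m was the only one of the 5 that varied more within iPSC groups than among the 4 ESC clones. Its pooled SD over iPSC groups was 2.26 times its SD of 0.29 in ESC. Single groups were mixed: the SD of A2m was above that of ESC in 7 of 13 iPSC groups. In the MEF-derived group it was 0.28, no larger than in ESC. The ratio of pooled SD to SD in ESC was 0.94 for Sprr2a1, 0.93 for Car3, 0.61 for Csn3 and 0.38 for Prl2c2, whose SD among ESC clones, 1.54, ranked 2nd of all genes. Each ESC value rests on 4 clones. iPSC-32 carried a large share of the iPSC spread. Without it the pooled SD was 0.82 for Sprr2a1 (rank 3), 0.52 for Prl2c2 (rank 19), 0.45 for Car3 (rank 46), 0.44 for A2m (rank 55) and 0.32 for Csn3 (rank 278), so the spread of Csn3 rested largely on this clone. The median absolute deviation, which single clones move little, was 0.32 for Sprr2a1 (rank 13), 0.26 for A2m (rank 46), 0.23 for Prl2c2 (rank 107), 0.19 for Car3 (rank 354) and 0.16 for Csn3 (rank 822), against a median of 0.089 and a 99th percentile of 0.23 over all genes. By that measure Car3 and Csn3 were not among the most variable 1% of genes.

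**Figure D1:**
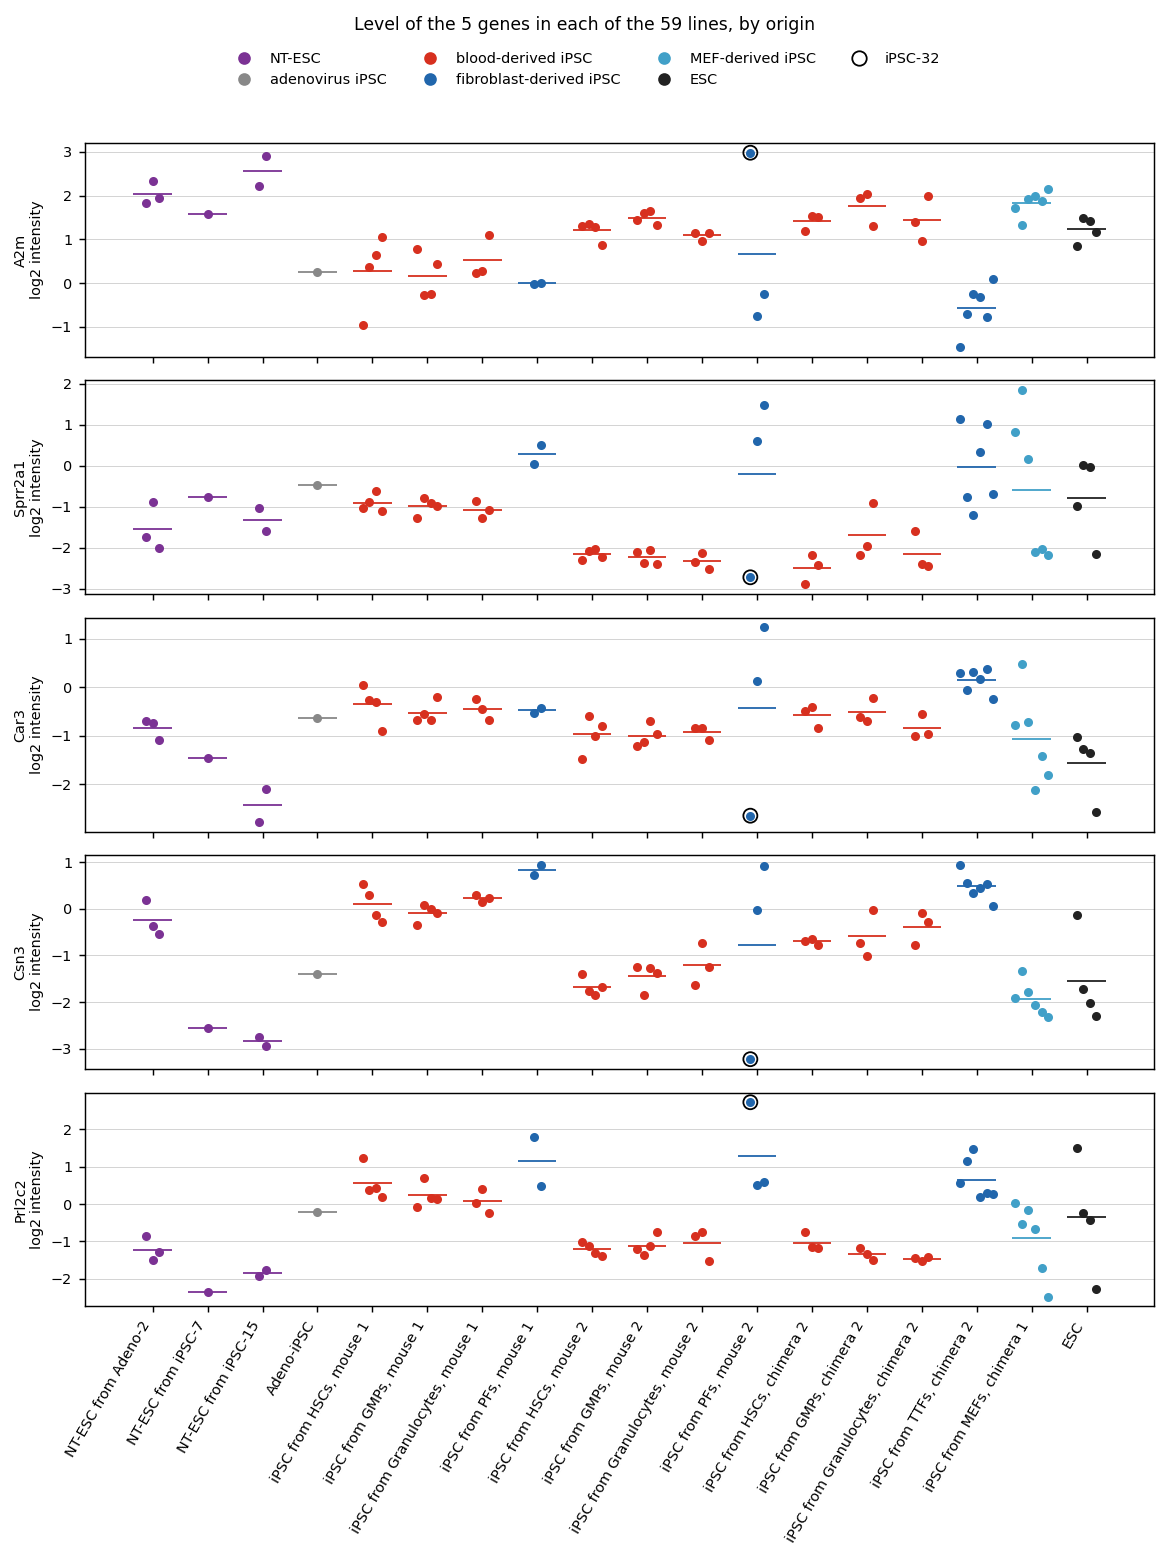
Level of each gene (log2 intensity, 1 panel per gene) in each of the 59 lines, with the lines grouped by origin along the horizontal axis; points are single lines, bars group means and the ring marks iPSC-32. Points of the PF mouse 2 group lie far apart in each panel, those of the MEF group for Sprr2a1, Car3 and Prl2c2, and those of blood-derived clones of mouse 1 for A2m, and iPSC-32 has the highest A2m and Prl2c2 and the lowest Csn3 of all lines.

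Sprr2a1, the epithelial envelope gene, split the 6 MEF-derived clones in 2. Its levels were 0.82, 1.85 and 0.17 in iPSC-1, iPSC-2 and iPSC-3, and -2.11, -2.03 and -2.17 in iPSC-4, iPSC-5 and iPSC-6, against -0.98, 0.02, -0.02 and -2.16 in ESC-1, ESC-2, ESC-3 and ESC-4. The 3 high MEF-derived clones lay above each ESC clone, and the 3 low ones near the lowest, ESC-4. Among the 6 TTF-derived clones Sprr2a1 ranged from -1.21 in iPSC-46 to 1.14 in iPSC-44, with a median of -0.17.

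Car3 followed the same order in part. It was 0.47 in iPSC-2, between -0.79 and -0.72 in iPSC-1 and iPSC-3, and between -2.12 and -1.42 in iPSC-4, iPSC-5 and iPSC-6. The 4 ESC clones had -1.03, -1.27, -1.35 and -2.58, again with ESC-4 lowest. In the PF-derived clones of mouse 2, Car3 was -2.65 in iPSC-32, 0.13 in iPSC-33 and 1.23 in iPSC-34, the last of which was the highest of all lines.

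Prl2c2, the prolactin-family hormone, was 0.04, -0.52, -0.16 and -0.66 in iPSC-1 to iPSC-4 and -1.71 and -2.48 in iPSC-5 and iPSC-6. The ESC clones had 1.49 in ESC-1, -0.23 and -0.43 in ESC-2 and ESC-3, and -2.27 in ESC-4. Both ranges were wide, and the MEF-derived clones lay within or just below that of ESC. The level of fibroblast and feeder genes also differed between these ESC and MEF-derived clones, as given below. The highest Prl2c2 of all 59 lines was 2.73, in iPSC-32.

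Csn3, the kappa-casein gene, lay close together in the MEF-derived clones, from -2.31 to -1.33 with a median of -1.99. It was -0.13 in ESC-1 and between -2.30 and -1.71 in the other 3 ESC clones. In the PF-derived clones of mouse 2 its level was -3.22 in iPSC-32, the lowest of all lines, against -0.02 and 0.91 in iPSC-33 and iPSC-34. A2m had the opposite order in that group: 2.98 in iPSC-32, the highest of all lines, -0.76 in iPSC-33 and -0.25 in iPSC-34.

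A2m was evenly high in MEF-derived clones, at 1.34 to 2.15 with a median of 1.90, against 0.86, 1.499, 1.42 and 1.17 in the 4 ESC clones. The difference of 0.59 ± 0.16 (SE) did not pass the test (limma, adjusted p = 0.33). Neither did those of Sprr2a1 (0.21), Car3 (0.50), Csn3 (-0.39) or Prl2c2 (-0.55), with adjusted p of 0.80 to 0.97. No gene of the array passed in this comparison, so 0% of genes were called higher and 0% lower in MEF-derived iPSC, while 997 had an unadjusted p under 0.05. The signs for Sprr2a1, Csn3 and Prl2c2 changed when single clones were left out.

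Across all 48 iPSC clones, no member passed the test against ESC either (limma; 2.52% of all genes were called higher and 2.41% lower in iPSC). Car3 came nearest, with a mean of -0.60 ± 0.67 in iPSC and -1.56 ± 0.69 in ESC (SD, n = 48 and n = 4), a difference of 0.96 ± 0.34 (SE, adjusted p = 0.081). Without iPSC-32 the difference in Car3 was 1.00 and passed (adjusted p = 0.043). The differences were 0.92 ± 0.51 for Csn3, -0.38 ± 0.48 for A2m, -0.42 ± 0.61 for Sprr2a1 and 0.03 ± 0.55 for Prl2c2 (SE), with adjusted p of 0.28 to 0.985. The count of genes called in this comparison moved between 5 and 1112 when single ESC clones were left out.

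Between blood and fibroblast origin of the iPSC, each of the 5 genes differed. The difference of means between origins does not use the spread within groups, by which the genes were picked, but its SE and p-value do. Results of these data were also known when this contrast was chosen. A2m was higher in blood-derived clones and the other 4 genes were lower, past the threshold in each case (limma with cell type and animal as terms, 42 clones). In the same fit 28.1% of all genes were called higher and 21.6% lower in blood-derived clones, so a call alone sets no gene apart.

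A2m, the protease inhibitor, ranged from -0.96 to 2.04 with a median of 1.16 in the 31 blood-derived clones, and from -1.46 to 2.98 with a median of -0.25 in the 11 fibroblast-derived clones. The fibroblast-derived maximum was iPSC-32, and the next highest was 0.11. The fitted difference was 1.26 ± 0.26 (SE; 2.39-fold, adjusted p = 8.69e-05).

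Prl2c2 ranged from -1.53 to 1.23 with a median of -1.01 in blood-derived clones, and from 0.19 to 2.73 with a median of 0.55 in fibroblast-derived clones. The difference was -1.84 ± 0.18 (SE; 3.59-fold lower, adjusted p = 1.37e-10). The ranges met only through blood-derived clones of mouse 1, since the highest of the 20 blood-derived clones of mouse 2 and chimera 2 was -0.74.

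Sprr2a1 ranged from -2.89 to -0.61 with a median of -2.06 in blood-derived clones, and from -2.72 to 1.49 with a median of 0.34 in fibroblast-derived clones. The difference was -1.88 ± 0.25 (SE; 3.69-fold lower, adjusted p = 4.78e-08). Csn3 ranged from -1.85 to 0.53 with a median of -0.68 in blood-derived clones, and from -3.22 to 0.94 with a median of 0.53 in fibroblast-derived clones. Here the difference was -0.86 ± 0.20 (SE; 1.81-fold lower, adjusted p = 0.000486).

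Car3 differed least. Its level ranged from -1.47 to 0.05 with a median of -0.68 in blood-derived clones, and from -2.65 to 1.23 with a median of 0.13 in fibroblast-derived clones. The difference was -0.53 ± 0.19 (SE; adjusted p = 0.019), and it fell short of the threshold when iPSC-33 (-0.46) or iPSC-34 (-0.33) was left out. Without iPSC-32 the differences of all 5 genes but Prl2c2 were larger: 1.60 for A2m, -2.17 for Sprr2a1, -0.80 for Car3, -1.17 for Csn3 and -1.61 for Prl2c2. Without the clones of chimera 2, the calls were lost for A2m (0.49, adjusted p = 0.26), Car3 (-0.30, adjusted p = 0.45) and Csn3 (-0.70, adjusted p = 0.082). Sprr2a1 (-1.71) and Prl2c2 (-1.76) kept theirs. Leaving out chimera 2 also left out all TTF-derived clones.

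The F test over the 4 cell types of origin, which 38% of all genes passed, was passed by the same genes other than Car3. Earlier results of these data had shown Sprr2a1 and Prl2c2 among the widest ranges, so their calls are no independent support. Fitted means spanned 1.96 for Sprr2a1 (adjusted p = 1.08e-06), 1.95 for Prl2c2 (3.58e-09), 1.34 for A2m (0.0012), 0.97 for Csn3 (0.0037) and 0.59 for Car3 (0.13). Without iPSC-32 all 5 genes passed, with spans of 2.24, 1.72, 1.68, 1.29 and 0.85 in the same order, and 4622 genes passed in place of 4488.

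Within single animals the size of the blood and fibroblast difference was uneven. For A2m the mean of blood-derived minus that of fibroblast-derived clones was 0.31 in mouse 1, 0.62 in mouse 2 and 2.11 in chimera 2. For Prl2c2 it was -0.84, -2.41 and -1.94 in the same order of animals. Both genes passed the test of a difference between animals in this contrast (limma interaction, added after the data had been seen; adjusted p = 0.026 for A2m and 0.034 for Prl2c2), which 20.2% of all genes passed. For Sprr2a1 the within-animal differences were -1.26, -2.02 and -2.08, for Csn3 -0.76, -0.68 and -1.04, and for Car3 0.03, -0.54 and -0.78, with adjusted p of 0.43 to 0.81. Without iPSC-32 all 5 genes passed this test, with adjusted p from 0.000401 for Car3 to 0.039 for Prl2c2, as did 26.3% of all genes, and the mouse 2 differences became 1.78 for A2m, -3.27 for Sprr2a1, -1.65 for Car3, -1.90 for Csn3 and -1.68 for Prl2c2. Mouse 1 gave 2 fibroblast-derived clones and mouse 2 gave 3. Those of mouse 1 and mouse 2 came from PFs, and those of chimera 2 from TTFs. A difference between animals and one between PF and TTF origin therefore cannot be told apart in this test.

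The ranges of blood-derived and fibroblast-derived clones did not overlap for Sprr2a1 and Csn3 in mouse 1 (17.5% of all genes), for Prl2c2 in mouse 2 (20% of all genes) and for A2m, Csn3 and Prl2c2 in chimera 2 (11.6% of all genes). In mouse 2 without iPSC-32 none of the 5 overlapped, against 36.9% of all genes. In chimera 2, A2m was 0.97 to 2.04 with a median of 1.52 in 9 blood-derived clones, against -1.46 to 0.11 with a median of -0.52 in 6 TTF-derived clones. In the same animal Prl2c2 was -1.53 to -0.76 in blood-derived and 0.19 to 1.47 in TTF-derived clones.

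**Figure D2:**
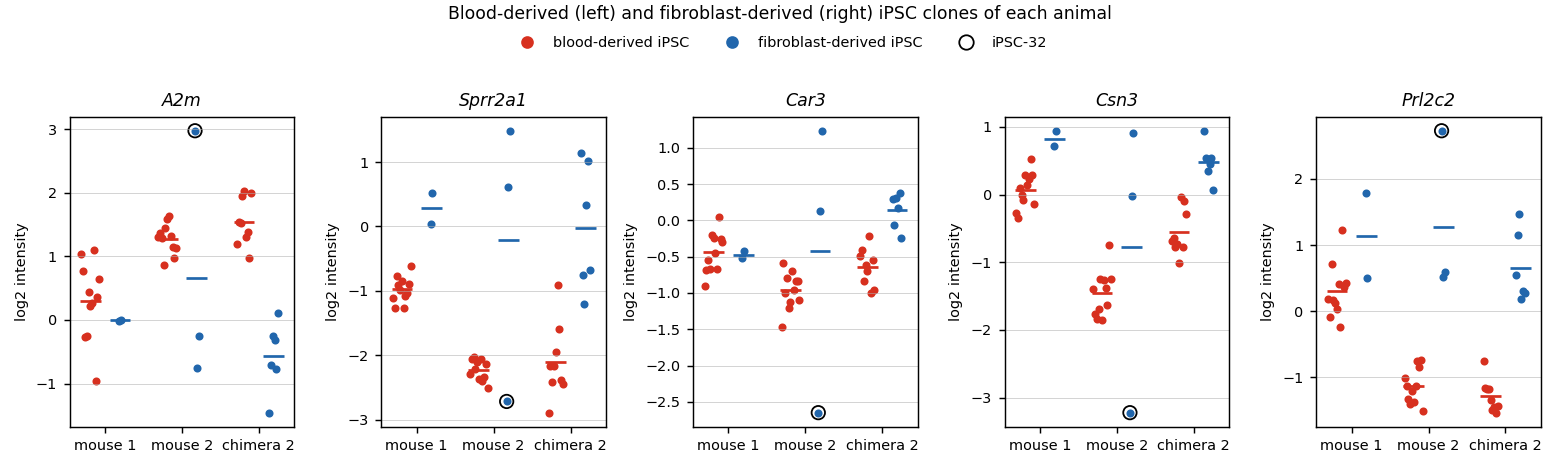
Level of each gene (log2 intensity, 1 panel per gene) in blood-derived clones (left of each pair) and fibroblast-derived clones (right) of mouse 1, mouse 2 and chimera 2; points are clones, bars means and the ring marks iPSC-32. In mouse 2 the ring lies far from the 2 other fibroblast-derived clones in each panel, and in mouse 1 the blood-derived clones lie nearer to the fibroblast-derived ones than in chimera 2 for A2m and Prl2c2.

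The animals differed as well. The test of any difference between the 3 animals, which 44.9% of all genes passed, was passed by A2m, Csn3, Prl2c2 and Sprr2a1, and not by Car3. Fitted means of the animals spanned 1.55 for Csn3 (adjusted p = 6.54e-07), 1.38 for Prl2c2 (5.59e-07), 1.12 for Sprr2a1 (0.0012), 0.97 for A2m (0.0091) and 0.43 for Car3 (0.10). Without iPSC-32 the spans were 1.35, 1.33, 1.02, 0.84 and 0.26 in this order, and again all but Car3 passed. In blood-derived clones alone, mean Prl2c2 was 0.31 in mouse 1, -1.13 in mouse 2 and -1.28 in chimera 2, and the lowest clone of mouse 1 (-0.23) lay above the highest of the other 2 animals (-0.74). Mean Csn3 was 0.07 in mouse 1, -1.46 in mouse 2 and -0.56 in chimera 2, and mean Sprr2a1 was -0.98, -2.23 and -2.10 in that order. A2m ran the other way, with means of 0.31, 1.28 and 1.55.

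Genes of fibroblasts and feeder cells moved with these differences. Of 28 such genes, collagens and other matrix and mesenchymal genes, 24 were measured, and 22 of them were lower and none higher in blood-derived than in fibroblast-derived clones, with a median difference of -0.83 against 0.003 over all genes. The mean level of the 24 genes was 0.88 to 1.33 in blood-derived and 2.28 to 2.61 in fibroblast-derived clones of mouse 2, 0.91 to 1.22 in blood-derived and 1.56 to 2.21 in fibroblast-derived clones of chimera 2, and 1.25 to 2.30 in blood-derived and 1.86 to 1.92 in fibroblast-derived clones of mouse 1. In ESC it was 0.51 to 1.62, and none of the genes can be said to be at 0 on this scale. With the mean of the 24 genes as a covariate, Sprr2a1 kept its call between blood and fibroblast origin, whereas A2m (0.79, adjusted p = 0.23), Car3 (-0.29, adjusted p = 0.58), Csn3 (-0.99, adjusted p = 0.0504) and Prl2c2 (-0.66, adjusted p = 0.0504) did not pass, and 2099 genes passed in place of 5870. The covariate itself differed by origin, without overlap in mouse 2 and chimera 2. This fit therefore cannot separate origin from the level of these genes, and a lost call does not tell which of them a difference goes with.

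Within origin groups, Prl2c2 and A2m varied with these genes in opposite directions. Over 52 lines, after the mean of each origin group was subtracted, the correlation of Prl2c2 with the mean of the 24 genes was 0.77 (0.78 without iPSC-32, and 0.49 over the 31 blood-derived clones). The correlation was 0.39 for Car3, 0.28 for Sprr2a1, 0.24 for Csn3 and -0.25 for A2m, and 0.69, 0.42, 0.56 and -0.54 in the same order without iPSC-32. Over the blood-derived clones alone these 4 values were 0.60, 0.039, 0.22 and -0.78. iPSC-32 had the highest mean of the 24 genes, 2.61, together with the highest Prl2c2. The 5 genes whose group-centred levels were most like those of Prl2c2 over the 52 lines were Thbd (r = 0.90), which encodes thrombomodulin, Nr2f2 (0.89), Vcam1 (0.88), S100a4 (0.87) and Serpinf1 (0.85). Over the same lines the correlation of Prl2c2 was 0.77 with the mean of 11 haematopoietic genes and 0.55 with that of 13 genes of the primitive endoderm. Over the blood-derived clones alone these values were 0.16 and 0.34. Single genes of these lists differed widely over the 52 lines. Their correlation with Prl2c2 ran from -0.38 (Coro1a) to 0.77 (Cd53) among the haematopoietic genes. Among the endoderm genes it ran from -0.30 (Lama1) to 0.71 (Col4a2), so neither list followed Prl2c2 as a set.

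**Figure D3:**
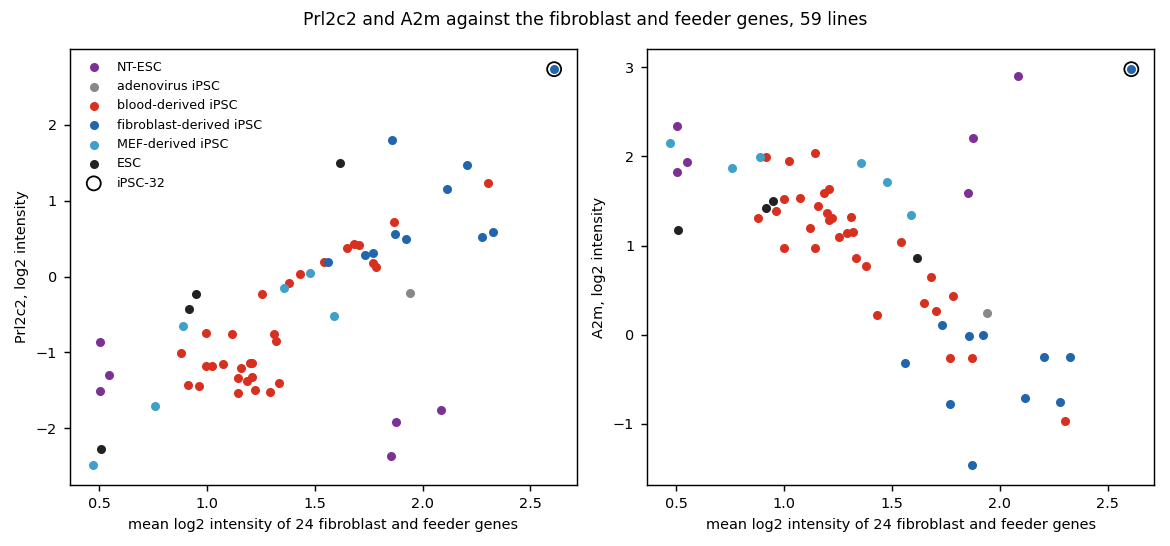
Level of Prl2c2 (left) and of A2m (right), in log2 intensity, against the mean log2 intensity of 24 fibroblast and feeder genes in each of the 59 lines, coloured by class; the ring marks iPSC-32. Prl2c2 is higher and A2m lower in lines with a higher mean, except in NT-7, NT-8 and NT-9, whose means of 1.85 to 2.08 go with Prl2c2 levels of -2.36 to -1.75, and except for A2m in iPSC-32.

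The group-centred levels of Sprr2a1, Car3 and Csn3 ran together and against those of A2m. The correlation over 52 lines was 0.82 between Sprr2a1 and Car3, 0.80 between Car3 and Csn3 and 0.61 between Sprr2a1 and Csn3. With A2m it was -0.78 for Csn3, -0.68 for Car3 and -0.55 for Sprr2a1. Without iPSC-32 these values were nearer to 0 but of the same sign: 0.74, 0.59, 0.39, -0.50, -0.36 and -0.29 in the order given. The lines share feeders, animals and arrays, and the 10 pairs are not independent of one another.

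Within single sets of clones the correlations took a range of values, whose differences were not tested. Among the 6 MEF-derived clones the correlation was 0.94 between Sprr2a1 and Car3, 0.91 between Sprr2a1 and Csn3 and -0.86 between A2m and Sprr2a1. Over the 31 blood-derived clones it was 0.27, 0.25 and -0.19 for these pairs, and the strongest links were A2m with Prl2c2 (-0.59) and with Csn3 (-0.56). The correlation of A2m with Csn3 was -0.82 in mouse 1, -0.73 in chimera 2 and -0.91 in mouse 2. In mouse 2 it became 0.18 without iPSC-32, and in that animal the correlations of A2m with Sprr2a1 (-0.92) and with Car3 (-0.88) became 0.55 and 0.37.

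The correlation of Prl2c2 with the other 4 genes over the 52 lines was 0.03 to 0.11. These values rested on iPSC-32, where Prl2c2 was highest and Csn3, Car3 and Sprr2a1 were low. Without this clone r was 0.57 with Csn3, 0.50 with Car3, 0.30 with Sprr2a1 and -0.29 with A2m.

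**Figure D4:**
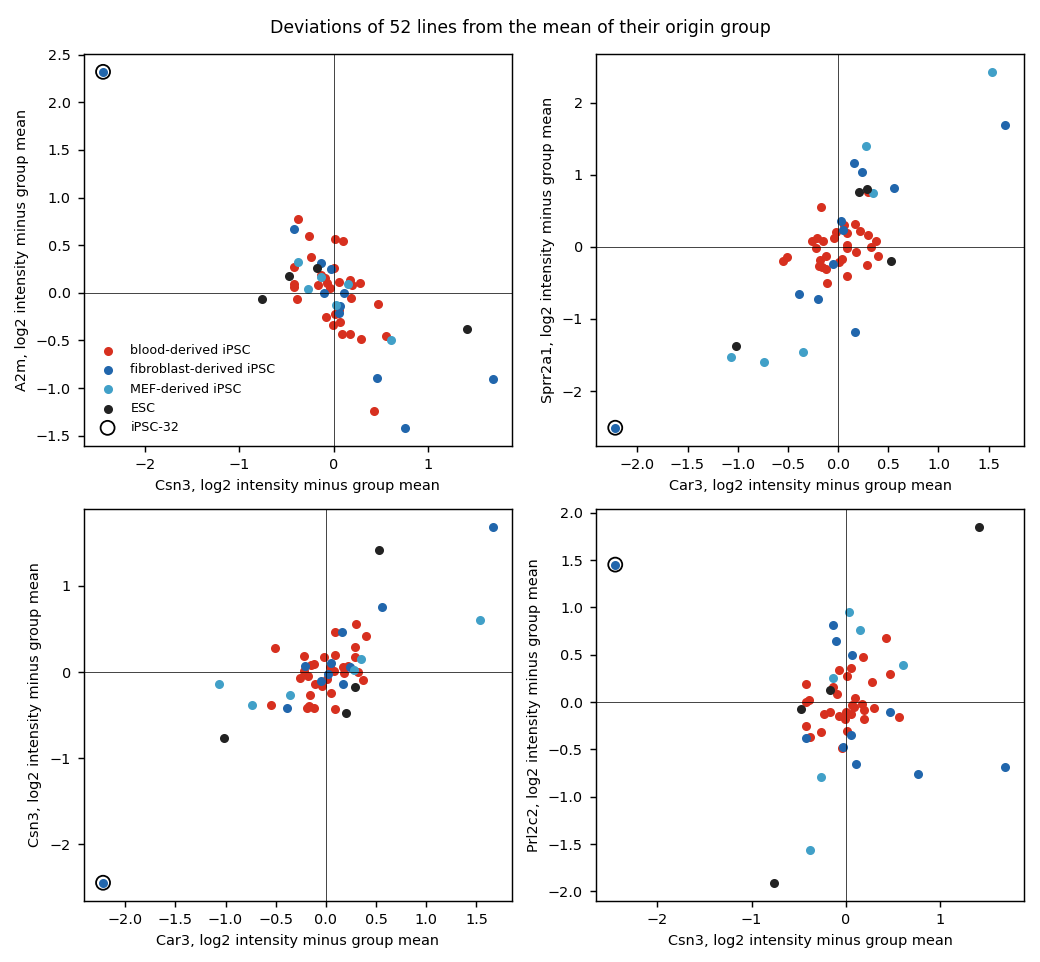
Deviation of each of 52 ESC and iPSC lines from the mean of its origin group (log2 intensity) for Csn3 and A2m, Car3 and Sprr2a1, Car3 and Csn3, and Csn3 and Prl2c2; points are lines coloured by class and the ring marks iPSC-32. The ring lies at the far end of the first 3 trends and opposite to the trend of the other lines for Csn3 and Prl2c2.

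The genes most like each of the other members were of several kinds. For Sprr2a1 they were Cyp26a1 (r = 0.88), which encodes an enzyme that breaks down retinoic acid, Gbp2 (0.87) and Gbp2b (0.86), which encode interferon-inducible guanylate-binding proteins, Krt8 (0.86), a simple-epithelial keratin, and Rdh10 (0.85), a retinol dehydrogenase. Dnmt3l, a cofactor of DNA methylation, was the most opposite (-0.83). Gbp2b (0.90) and Gbp2 (0.88) were also among the genes most like Car3, together with Car2 (0.89), the cytosolic carbonic anhydrase II. For Csn3 they were Limd1 (0.90), Pgap4, Sema3e (0.89 each), Tgtp1 and Wt1, with r of at least 0.88, and for A2m they were led by Pfkp (0.88), the platelet isoform of phosphofructokinase. Without iPSC-32 the most alike gene was still Pfkp (0.84) for A2m, Cyp26a1 (0.85) for Sprr2a1 and Thbd for Prl2c2, but Car2 (0.86) for Car3 and Irgm1 (0.85) for Csn3.

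The counts of called genes in the lists below are to be read against the 28.1% of all genes called higher and the 21.6% called lower in blood-derived clones. Of 16 other prolactin-family genes, Prl2a1 was higher in blood-derived clones (0.14) and none was lower, and their mean levels lay near the lower end of the arrays, as for Prl2c5 (-4.42 over 52 lines). Of 6 milk protein genes 3 were lower in blood-derived clones, Lalba (-0.24), Csn1s1 (-0.12) and Csn2 (-0.11), all of them dim, and none was higher. None of 6 genes of the alpha-macroglobulin and complement family passed, among them Pzp (-0.11) and Cd109 (-0.18).

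Of 18 genes of the Sprr and cornified envelope list, 6 were lower and 2 higher in blood-derived clones, with a median of -0.13 against 0.003 over all genes. Sprr2k (-0.75, adjusted p = 1.59e-07), Sprr1a (-0.39) and Ivl (-0.33), which encodes involucrin, were lower, and Tgm1 (0.34), a transglutaminase that cross-links the envelope, was higher. Of 6 keratinocyte markers 2 were lower, Krt14 and Ivl, which are also in the envelope list. Of 13 trophoblast markers 7 were lower and 2 higher, with Krt8 (-0.84) and Krt18 (-0.43) among the lower ones. The mean of the 13 followed Sprr2a1 within groups over 52 lines (r = 0.71, and 0.72 without iPSC-32). It did not over the 31 blood-derived clones alone (-0.12). Over the 52 lines the correlation of single markers with Sprr2a1 ran from -0.56 to 0.86, the latter for Krt8. Of 15 carbonic anhydrases, Car2 (-0.76) and Car14 (-0.27) were lower and Car12 (0.54), Car9 (0.48) and Car6 (0.40) higher in blood-derived clones. Car2 and Car4 followed Car3 within groups (r = 0.89 and 0.66).

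The LIF and Stat3 pathway list, with 5 of 17 genes higher and 5 lower in blood-derived clones, had as many in each direction, both shares near those of all genes. In the list of immediate early and AP-1 genes 4 of 14 were higher and 6 lower, Fosl1 the lowest (-0.75). The mean of that list followed Car3 (r = 0.69), Sprr2a1 (0.63) and Csn3 (0.60) within groups over the 52 lines. Without iPSC-32 these values were 0.61, 0.53 and 0.47. Over the 31 blood-derived clones alone they were 0.052, -0.52 and -0.047, so the list did not follow the 3 genes there. Of 16 pluripotency genes 8 were higher and 2 lower in blood-derived clones, of 11 haematopoietic markers 2 were higher and 4 lower, of 13 primitive endoderm markers 2 were higher and 4 lower, and of 5 adipocyte markers 1 was lower.

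In NT-ESC lines A2m was higher than in the donor line in 6 of 6 cases. Each donor was a single clone on 1 array. It was 1.83, 2.34 and 1.94 in NT-4, NT-5 and NT-6, against 0.25 in Adeno-2. It was 1.59 in NT-7, against -0.96 in iPSC-7, and 2.21 and 2.91 in NT-8 and NT-9, against 0.22 in iPSC-15. Each NT-ESC line also lay above the highest ESC clone, ESC-2 at 1.499. The difference from the donors was 2.18 ± 0.23 (SE; 4.52-fold, limma with the donor as a block, adjusted p = 0.026), and A2m was 1 of only 2 genes called higher, 0.0169% of all genes. The call was not stable. It was lost without the donor block (2.30, adjusted p = 0.14), without the family of iPSC-7 (2.05, adjusted p = 0.12) or iPSC-15 (2.09, adjusted p = 0.099), and when NT-4, NT-5, NT-6, NT-7 or NT-8 alone was left out (2.05 to 2.26, adjusted p of 0.058 to 0.12). Without the 3 NT-ESC lines of iPSC-7 and iPSC-15 it was 1.79, a value that sets 3 lines against the single array of Adeno-2.

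Prl2c2 was lower than in the donor in 6 of 6 cases, but the difference of -1.98 ± 0.40 (SE) did not pass (adjusted p = 0.061; 0.0423% of all genes were called lower). It was -0.86, -1.51 and -1.29 in NT-4, NT-5 and NT-6, against -0.21 in Adeno-2, and -2.36 in NT-7, against 1.23 in iPSC-7. NT-8 and NT-9 had -1.92 and -1.75, against 0.04 in iPSC-15. In the family of Adeno-2 alone the difference was -1.01, against 1 donor array. The mean of the 24 fibroblast and feeder genes was 0.50 to 0.55 in NT-4, NT-5 and NT-6, against 1.94 in Adeno-2, so in this family it was lower together with Prl2c2. In NT-7, NT-8 and NT-9, with means of 1.85 to 2.08, Prl2c2 was low while these genes were not. Markers of other cell types moved in these 3 lines. The mean of 13 primitive endoderm markers was 0.99, 1.86 and 1.73 in NT-7, NT-8 and NT-9, against -0.69 in iPSC-7 and -0.86 in iPSC-15, with 13 of 13 markers above the donor in each line. It was -0.98 to -0.96 in NT-4, NT-5 and NT-6, against -0.73 in Adeno-2, and -1.06 to -0.76 in ESC. The mean of 13 trophoblast markers was 0.33 to 0.57 in NT-7, NT-8 and NT-9, against -0.65 and -0.55 in their donors, and that of 16 pluripotency genes was 3.45 to 3.81, against 3.83 and 3.98. Counts above the donor were also high for dim lists in NT-7, NT-8 and NT-9. They were 6 of 6 milk protein genes in each line, and 15, 15 and 14 of 16 prolactin-family genes. For the pluripotency genes they were 6, 4 and 7 of 16. The part of these markers, and of the narrower spread of these 3 arrays, in the Prl2c2, Csn3, Car3 and A2m values of these lines was not tested.

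Csn3 was higher than in the donor in the family of Adeno-2 and lower in the families of iPSC-7 and iPSC-15. NT-4, NT-5 and NT-6 had 0.19, -0.37 and -0.54, against -1.41 in Adeno-2, a difference of 1.17 from that 1 array. NT-7 had -2.56, against 0.53 in iPSC-7, and NT-8 and NT-9 had -2.74 and -2.94, against 0.29 in iPSC-15. The difference over all 6 lines was -1.44 ± 0.76 (SE, adjusted p = 0.18), and whether the families differ was not tested.

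Car3 was lower in each NT-ESC line than in its donor, with differences of -0.45 to -0.05 in NT-4, NT-5 and NT-6 and of -2.54 to -1.502 in NT-7, NT-8 and NT-9. The levels were -0.69, -0.73 and -1.08, against -0.64 in Adeno-2, -1.46 in NT-7, against 0.05 in iPSC-7, and -2.77 and -2.09 in NT-8 and NT-9, against -0.24 in iPSC-15. The overall difference was -1.23 ± 0.36 (SE, adjusted p = 0.067), and -0.20 in the family of Adeno-2 alone. Sprr2a1 differed by -0.51 ± 0.32 (SE, adjusted p = 0.24), with NT-7 above its donor (-0.76 against -1.03) and the other 5 lines below theirs, and by -1.07 in the family of Adeno-2 alone.

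**Figure D5:**
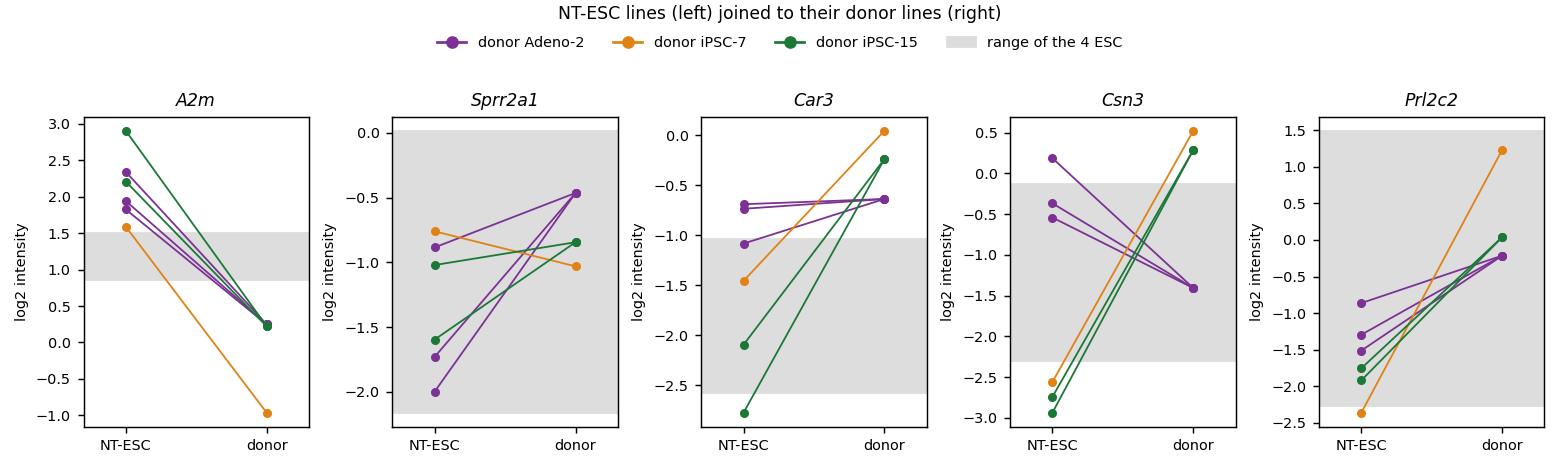
Level of each gene (log2 intensity, 1 panel per gene) in NT-ESC lines (left), each joined by a line to its donor (right), coloured by donor; the grey band is the range of the 4 ESC clones. All 6 lines of the A2m panel slope down to the donor, and in the Csn3 panel the lines of Adeno-2 run opposite to those of iPSC-7 and iPSC-15.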

How the data were processed

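Affymetrix arrays measured the RNA of 59 mouse lines, 1 array per line. The authors deposited log2 intensities of 22626 probe sets; the base of 2 and the centring of each array near 0 were inferred from the values (-4.83 to 6.97), and the sources used here give neither background correction nor summarisation, scan date or batch. Probe sets were named from the platform annotation (18003 with 1 gene, 287 with several, 4336 with none), and a gene is its probe set with the highest mean, 11807 genes in all. Comparisons used limma 3.58.1 in R 4.3.3 (2-sided moderated tests, Benjamini-Hochberg over all genes, threshold 0.05), which gave all adjusted p-values; the code was tested on simulated data. The terms were cell type and animal for the 42 clones of 3 animals, none for comparisons with ESC, and the donor for NT-ESC. Group-centred correlations used Python 3.11.15 with pandas 2.3.3 and scipy 1.17.1. The number of arrays limits the precision, and p-values measure the spread between clones, with few animals. The members, gene lists and tests were chosen with earlier results of these data known. All 8 probe sets of the members, the 5 genes most like each member in either sense and the measured genes of the lists could be named. Alternatives covered normalisation, the choice of probe set, the fit, single lines left out and iPSC-32.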

Additional observations from a re-analysis of the deposited data

Results flagged for a closer look

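In 1 of the 35 sets of 4 to 10 lines examined for a line far from the others (a gene in an origin group), such a line was found: A2m was 0.87 in iPSC-24, against 1.29 in the next lowest of the 4 HSC-derived clones of mouse 2, a gap of 0.86 of the group's whole range. Chance alone flags about 1 in 20 such sets.

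The blood and fibroblast difference of A2m was unequal between the 3 animals (limma interaction, adjusted p = 0.026), in a test that 20.2% of all genes passed. It was 0.31 in mouse 1, 0.62 in mouse 2 and 2.11 in chimera 2. The difference of Prl2c2 was unequal too (limma interaction, adjusted p = 0.034), at -0.84, -2.41 and -1.94 in the same order. Without iPSC-32 the mouse 2 values were 1.78 for A2m and -1.68 for Prl2c2. All 5 genes then passed, as did 26.3% of all genes. The fibroblast-derived clones were of PF origin in mouse 1 and mouse 2 and of TTF origin in chimera 2. Animal and fibroblast type therefore cannot be told apart here.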

How the results depend on the processing

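The blood and fibroblast differences of the 5 genes kept their sign under each alternative run. Leaving out single clones gave 1.13 to 1.60 for A2m, -2.17 to -1.66 for Sprr2a1, -0.80 to -0.33 for Car3, -1.17 to -0.67 for Csn3 and -2.04 to -1.61 for Prl2c2. The second Csn3 probe set did not pass between origins (-0.095) or animals (0.064). Without chimera 2, A2m (0.49), Car3 (-0.30) and Csn3 (-0.70) fell short of the threshold between blood and fibroblast origin. With the fibroblast list mean as covariate A2m (0.79), Car3 (-0.29), Csn3 (-0.99) and Prl2c2 (-0.66) fell short, but that mean itself differs between the origins. Between animals, A2m (0.89) and Sprr2a1 (1.01) did not pass without the cell type term, nor A2m with that covariate (0.79), and leaving out single clones moved Car3 between 0.26 and 0.61. Under the covariate 2099 genes passed between blood and fibroblast origin. With every probe set on its own the counts called were 10754 (blood and fibroblast), 8136 (cell types), 9611 (animals), 1019 (iPSC and ESC), 8 (MEF-derived iPSC and ESC) and 13 (NT-ESC and donors), in part because more features were tested. With 1 mean per animal and cell type, 2050 genes passed between cell types. Between iPSC and ESC, 583 genes passed, against 0 with the animal as a random block, 3039 with equal weight per origin group, 2280 without MEF-derived clones and 5 to 1112 without single ESC clones. Between MEF-derived iPSC and ESC, 0 passed, against 7 with the mean of probe sets, 203 in 1 fit over all groups and 0 to 4 without single clones. Clone numbers were taken as names and not as pairs. The correlations between same-numbered clones were 0.06, 0.12, 0.35 and 0.31. Clones of unlike number were not compared, so whether the numbers pair these lines was not tested. With the clone number as a replicate block 15 genes passed, and Prl2c2 turned to 0.036. Between NT-ESC and donors 7 genes passed, against 12 with a trended robust fit, 0 without the donor block, 2434 without the family of Adeno-2, 0 without that of iPSC-7, 12 without that of iPSC-15, 2042 without the 3 NT-ESC lines of iPSC-7 and iPSC-15 (a fit that assumes the lone donor array varies like the NT-ESC) and 0 to 9 without single lines.

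Signs turned for Prl2c2 between iPSC and ESC (-0.017 with the random block, -0.039 without iPSC-32, -0.61 to 0.64 without single ESC clones). Without single clones, the MEF-derived and ESC difference ran from -0.28 to 0.53 for Sprr2a1, -0.65 to 0.077 for Csn3 and -1.19 to 0.063 for Prl2c2. In NT-ESC, the second probe sets gave 0.62 for Car3 and 0.39 for Csn3, and Csn3 was 1.17 without the 3 NT-ESC lines of iPSC-7 and iPSC-15. The causes were not tested.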
